A study of Mus musculus with 23 samples.

Results

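The myeloid C-type lectin receptors considered here are 10 genes, Clec4a1, Clec4a2, Clec4a3, Clec4d, Clec4e, Clec4n, Clec5a, Clec7a, Clec10a and Clec12a, taken by symbol from the 52636 genes of the expression tables. Each symbol matched 1 Ensembl gene. They encode single-pass membrane receptors that carry a carbohydrate-recognition-like domain on the surface of macrophages, monocytes, dendritic cells and neutrophils. As background, activating members such as Mincle (Clec4e), MCL (Clec4d), Dectin-2 (Clec4n), Dectin-1 (Clec7a) and MDL-1 (Clec5a) reach the kinase SYK either through an adaptor with an activation motif (FcRγ or DAP12) or through a motif of their own, and SYK then engages CARD9, BCL10 and MALT1 to raise NF-κB activity. Inhibitory members such as DCIR (Clec4a2) and MICL (Clec12a) recruit the phosphatase SHP-1 through an inhibitory motif, whereas MGL1 (Clec10a) binds galactose-type sugars, takes up its ligands and is widely used as a marker of macrophages exposed to interleukin-4.

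The measurements are 23 RNA-seq libraries of mouse macrophages grown in culture from bone marrow (BMDMs). Libraries labelled Stk40 KO came from cells at T0, before lipopolysaccharide (LPS, a component of the outer membrane of Gram-negative bacteria), and from LPS-treated cells at T6, T16 and T32 (n = 3 at each). Libraries labelled Stk40 WT came from the same points (n = 3 at T0, T6 and T32, n = 2 at T16). The sources used here give neither the unit of time, the strain, the age and number of mice nor the way the Stk40 allele was made. They do not say whether replicates were separate mice or cultures, so a p-value speaks of the spread among these libraries, part of which may be technical. Stk40 encodes a pseudokinase partner of the ubiquitin ligase COP1.

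Library totals ran from 19455080 to 44097733 counts. Stk40 RNA was not lower in the libraries labelled KO: at T0 they held 11.7 to 14.0 nRPKM (size-factor-adjusted RPKM, reads scaled by gene length and library size) against 8.85 to 11.9 in WT, and at T32 22.9 to 24.2 against 15.4 to 22.2, and averaged over the times it was called higher in KO (log2 difference 0.32 ± 0.08, SE; edgeR adjusted p = 0.0063), so the genotype rests on the labels. WT T16 replicate 2 stood apart, with a mean correlation of 0.960 with the other T16 libraries, where those libraries had 0.977 to 0.981. Mitochondrial genes took 0.355% of the counts of KO T0 replicate 1 and 1.38% to 1.82% of those of the other T0 libraries. At T6 they took 0.681% in KO replicate 2 and 1.10% in WT replicate 2, against 0.351% to 0.474% in the other 4 libraries, and these 2 had the lowest mean correlations with the other T6 libraries (0.967 and 0.966). Y-linked transcripts reached 100 counts in no KO library (at most 3 counts) and in 4 WT libraries. These were replicate 2 of T0 and of T16, replicate 1 of T6 and replicate 3 of T32. The other WT libraries held at most 4 such counts. The 8 macrophage markers summed to 14307 to 27457 CPM (counts scaled to library depth), and none was at 0 in any group. Markers of dendritic cells summed to 3.27 to 19.8 CPM, those of T, B and NK cells to 0.860 to 3.11 CPM, and those of mast cells and basophils to 0.292 to 1.81 CPM.

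In GRCm38 with the GENCODE M21 annotation, 9 of the 10 genes lie on chromosome 6 and 1, Clec10a, on chromosome 11 (70156197 to 70170834, plus strand). A stretch of 368 kb on chromosome 6 holds 6 of them in the order Clec4a1 (122921848 to 122934619), Clec4a3 (122952515 to 122969875), Clec4a2 (123106428 to 123143999), Clec4n (123229843 to 123247021), Clec4d (123262111 to 123275265) and Clec4e (123281789 to 123289870). Clec4e is on the minus strand and the other 5 are on the plus strand, so that Clec4d and Clec4e point towards each other with 6.52 kb between their ends. Clec12a (129342691 to 129365303, plus strand) and Clec7a (129461591 to 129472779, minus strand) lie 96.3 kb apart, and Clec5a (40574894 to 40585821, minus strand) lies elsewhere on the chromosome. Clec7a is typed as a polymorphic pseudogene in the deposited gene table and in GENCODE, whereas the other 9 are protein coding. None shares exon bases with another annotated gene. Reads of 50 bases can be shared between close copies: 9.02% of the distinct 50-base stretches of Clec10a transcripts occur in another gene as well (8.49% in Mgl2) and 6.83% of those of Clec4a2 (6.15% in Clec4a4 or Clec4b1). The deposited counts are of uniquely aligned reads, so reads from such stretches would be left out of them. These percentages are shares of distinct stretches and not of counts. For the other 8 the share was at most 0.686%.

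Promoter windows are shown for the neighbours Clec4e and Clec4d, whose rises with LPS differed widely in size, and for Clec12a, which holds the same kind of match as Clec4e. Each is 250 bases before to 50 bases after the RefSeq start in GRCm38.p6, written 5′ to 3′ on the gene's strand. RefSeq windows were at hand for 8 of the 10 genes and were not for Clec4n and Clec10a. Capitals mark matches to a C/EBP motif (TTGCNNAA), an interferon-stimulated response element (ISRE) or an AP-1 motif (TGANTCA), searched on both strands. A PU.1 motif (GAGGAAGT) and the NF-kB consensus were searched too.
Clec4e promoter, chr6:123289822-123290121, minus strand: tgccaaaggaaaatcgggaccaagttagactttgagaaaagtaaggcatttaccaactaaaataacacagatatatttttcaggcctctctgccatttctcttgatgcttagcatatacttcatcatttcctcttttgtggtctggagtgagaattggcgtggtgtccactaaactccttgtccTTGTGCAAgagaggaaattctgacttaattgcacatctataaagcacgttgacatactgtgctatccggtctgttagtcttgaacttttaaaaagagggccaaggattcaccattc
Clec4d promoter, chr6:123261857-123262156, plus strand: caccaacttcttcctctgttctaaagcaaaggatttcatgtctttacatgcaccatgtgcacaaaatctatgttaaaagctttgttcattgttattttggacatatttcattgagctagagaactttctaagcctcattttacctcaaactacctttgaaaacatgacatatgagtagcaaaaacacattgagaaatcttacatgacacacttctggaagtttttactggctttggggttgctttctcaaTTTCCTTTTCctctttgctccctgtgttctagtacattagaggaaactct
Clec12a promoter, chr6:129349994-129350293, plus strand: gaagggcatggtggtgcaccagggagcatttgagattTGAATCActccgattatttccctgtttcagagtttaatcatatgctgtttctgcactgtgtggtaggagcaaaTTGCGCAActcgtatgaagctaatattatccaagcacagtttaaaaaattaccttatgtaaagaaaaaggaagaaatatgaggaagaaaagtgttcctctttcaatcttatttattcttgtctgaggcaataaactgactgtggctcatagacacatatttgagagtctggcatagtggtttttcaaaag
The C/EBP motif was matched at position −66 from the start of Clec4e (TTGTGCAA) and at −140 of Clec12a (TTGCGCAA), and it is present in 10.8% of 27025 RefSeq windows of the same length. Clec4d held an ISRE match beginning at position 1 (3.49% of windows). The AP-1 motif was matched in Clec12a at −213 and in Clec4a2 at 32 (7.93% of windows). No 2 matches overlapped. The NF-kB and PU.1 motifs, present in 4.35% and 3.28% of windows, were not found in the 8 windows, and those of Clec7a, Clec5a, Clec4a1 and Clec4a3 held none of the 5 motifs.

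In untreated cells the receptors differed widely on the length-normalized scale. Clec4d was the most abundant, at 534 ± 65.0 nRPKM in KO and 447 ± 98.7 in WT libraries (SD, n = 3 each). It was followed in KO by Clec12a (304 ± 26.5), Clec4a1 (209 ± 10.9), Clec4a3 (128 ± 17.1) and Clec7a (54.5 ± 11.1), each with every library above every library of the next. Clec4n (36.5 ± 4.89) and Clec4a2 (36.3 ± 3.37) overlapped, as did Clec4e (8.35 ± 1.43) and Clec10a (7.69 ± 2.44), and Clec5a came last at 2.43 ± 0.313 nRPKM. With LPS the order changed mainly through Clec4e, which ranked 8 in KO cells at T0 and 2 at T6. Its share of all counts of the 10 genes was 0.792% to 1.03% in KO and 0.829% to 1.07% in WT at T0, and 27.5% to 34.2% in KO and 24.6% to 33.4% in WT at T6. The 10 genes together took 0.252% to 0.473% of a library's counts.

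**Figure D1:**
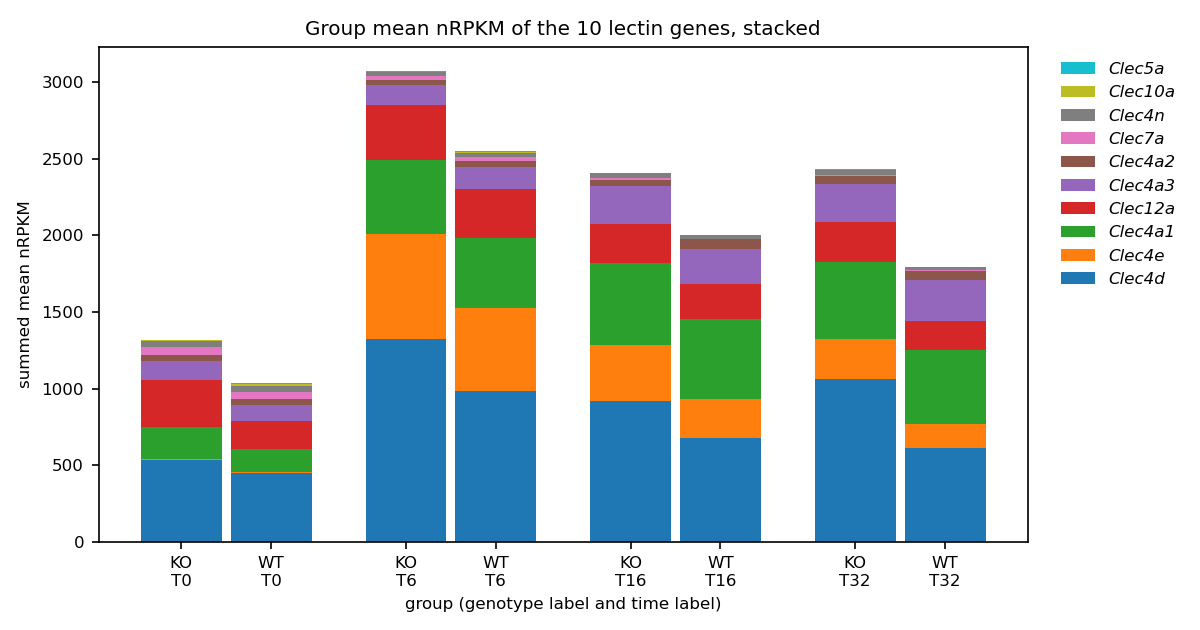
Group means of the deposited nRPKM values of the 10 genes, stacked, with KO left of WT at each time label; 3 libraries stand behind each bar and 2 behind WT T16. Clec4d is the lowest block of every bar, and the Clec4e block, hardly visible at T0, averages 690 nRPKM in KO and 545 nRPKM in WT at T6.

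Clec4e and Clec4d encode receptors that associate with each other and with FcRγ and recognise mycobacterial glycolipids. In libraries labelled KO, Clec4e was at 6.75, 9.50 and 8.82 nRPKM at T0, 697, 569 and 804 at T6, 363, 273 and 453 at T16 and 229, 245 and 307 at T32. In WT it was at 6.78, 5.89 and 6.39 nRPKM at T0, 628, 478 and 529 at T6, 301 and 217 at T16 and 177, 159.5 and 142 at T32. Every LPS library of either genotype lay above every T0 library, and Clec4e had the largest rise of the 10 genes at each time. The log2 fold changes at T6, T16 and T32 against T0 were 6.26 ± 0.25, 5.42 ± 0.24 and 4.96 ± 0.23 in KO (SE; edgeR adjusted p = 1.1e-13, 4.1e-12 and 1.6e-11) and 6.34 ± 0.25, 5.34 ± 0.24 and 4.66 ± 0.23 in WT (adjusted p = 1.3e-13, 1e-11 and 2.2e-11). At T6 this is a 76.5-fold rise in KO and an 81.0-fold rise in WT.

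Clec4d, already abundant, moved less. It was at 463, 548 and 590.3 nRPKM at T0, 1215, 1429 and 1323 at T6, 939, 859.5 and 963 at T16 and 996, 1112 and 1072 at T32 in KO libraries. The WT libraries held 559, 371 and 413 nRPKM at T0, 896, 1216 and 833 at T6, 615 and 734 at T16 and 682, 589.5 and 564 at T32. The LPS libraries lay above the T0 libraries in both genotypes at all 3 times. The log2 fold changes against T0 were 1.20 ± 0.16, 0.77 ± 0.16 and 0.99 ± 0.16 in KO (adjusted p = 2.9e-06, 0.00084 and 9.1e-05) and 1.05 ± 0.16, 0.58 ± 0.18 and 0.46 ± 0.16 in WT (adjusted p = 1.5e-05, 0.016 and 0.027). The WT calls at T16 and T32 were lost without WT T0 replicate 2 or 3, that at T16 also without WT T16 replicate 2 and that at T32 without WT T32 replicate 1 (log2 fold change 0.35 to 0.53, adjusted p = 0.056 to 0.13). With libraries scaled by their totals the rise of Clec4d passed the test in KO at T32 and at no other time, at 0.36 (adjusted p = 0.055) in KO and 0.25 (adjusted p = 0.17) in WT at T6. The ratio of Clec4e to Clec4d was 0.0146 to 0.0173 in KO and 0.0121 to 0.0159 in WT at T0, and 0.398 to 0.608 in KO and 0.393 to 0.701 in WT at T6.

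Clec7a, the receptor for fungal β-glucan, moved the other way. In KO libraries it was at 66.6, 44.7 and 52.3 nRPKM at T0, 26.5, 21.3 and 29.1 at T6, 9.84, 9.05 and 10.95 at T16 and 9.22, 11.8 and 9.03 at T32. Its values in WT libraries were 49.4, 40.8 and 39.0 nRPKM at T0, 25.6, 18.2 and 21.9 at T6, 4.70 and 3.68 at T16 and 4.99, 4.98 and 4.33 at T32. All LPS values lay below all T0 values of the same genotype, and from T16 on the KO values lay above the WT values. The fall at T6, T16 and T32 was −1.20 ± 0.17, −2.47 ± 0.18 and −2.45 ± 0.18 in KO (adjusted p = 5.6e-06, 2.4e-09 and 3.9e-09) and −1.06 ± 0.17, −3.37 ± 0.22 and −3.17 ± 0.19 in WT (adjusted p = 2.7e-05, 8.7e-10 and 2.3e-10). At T32 this is a level 5.46-fold lower than at T0 in KO and 8.98-fold lower in WT.

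Clec4n, a receptor for fungal mannans, varied widely between replicates. KO libraries held 38.8, 39.8 and 30.9 nRPKM at T0, 31.1, 17.8 and 27.3 at T6, 25.3, 35.4 and 28.5 at T16 and 29.3, 41.2 and 31.6 at T32. WT libraries held 44.3, 48.6 and 17.9 nRPKM at T0, 47.5, 23.7 and 14.4 at T6, 15.1 and 31.3 at T16 and 12.9, 15.5 and 17.5 at T32. On the nRPKM scale only the WT values at T32 lay wholly below T0, with a log2 fold change of −1.26 ± 0.38 (SE; adjusted p = 0.01). That call was lost without WT T0 replicate 2 (−1.01, adjusted p = 0.055). The other 5 changes against T0 ran from −0.69 to −0.10 and did not pass the test with TMM scaling. On library totals Clec4n was called lower than at T0 in KO at T6 and in WT at T6, T16 and T32. On TMM-scaled CPM the KO values at T6 (23.5 to 41.0) also lay below those at T0 (44.3 to 56.2), at −0.63 ± 0.37 (SE, edgeR adjusted p = 0.15).

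Clec5a, which signals through DAP12, was the least abundant of the activating receptors. In KO cells it was at 2.07, 2.64 and 2.58 nRPKM at T0, 6.50, 5.68 and 6.66 at T6, 3.13, 3.09 and 3.23 at T16 and 2.46, 2.29 and 2.32 at T32. In WT cells it was at 1.67, 1.65 and 1.62 nRPKM at T0, 5.62, 6.25 and 6.25 at T6, 2.55 and 1.96 at T16 and 3.06, 3.18 and 2.94 at T32. The peak was at T6 in both genotypes, with log2 fold changes of 1.26 ± 0.12 (SE; adjusted p = 3.1e-08) in KO and 1.79 ± 0.13 (SE; adjusted p = 2.6e-10) in WT. At T16 they were 0.36 ± 0.12 (SE; adjusted p = 0.024) in KO, where library totals turned the sign (−0.10), and 0.44 ± 0.14 (SE; adjusted p = 0.016) in WT, where totals gave 0.02 (adjusted p = 0.93). These T16 calls were lost without KO T0 replicate 1, KO T16 replicate 1 or 3 in KO (0.26 to 0.37, adjusted p = 0.052 to 0.11) and without WT T16 replicate 1 in WT (0.23, adjusted p = 0.28). At T32 Clec5a was −0.04 ± 0.12 (SE; adjusted p = 0.81) in KO, where the values overlapped those of T0, and 0.90 ± 0.12 (SE; adjusted p = 9.8e-06) in WT, where they did not.

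Clec4a2 encodes the inhibitory receptor DCIR, and Clec4a1 and Clec4a3 encode its relatives DCIR4 and DCIR3. Clec4a1 was at 216, 215 and 196 nRPKM at T0, 519, 376 and 547 at T6, 558, 509 and 545 at T16 and 477, 569 and 479 at T32 in KO. In WT it was at 183, 165 and 104 nRPKM at T0, 582, 432 and 349 at T6, 409 and 628 at T16 and 454, 491 and 507 at T32. It rose at every LPS time with no overlap with T0, by 1.09 ± 0.21, 1.35 ± 0.21 and 1.28 ± 0.21 in KO (adjusted p = 0.00014, 3.6e-05 and 8e-05) and 1.51 ± 0.21, 1.76 ± 0.23 and 1.69 ± 0.21 in WT (adjusted p = 3.8e-06, 5.2e-06 and 3.3e-06). Clec4a3 rose later. It was at 141, 109 and 135 nRPKM at T0, 145, 116 and 146 at T6, 247, 229 and 275 at T16 and 226, 267 and 253 at T32 in KO. In WT the values were 126, 111 and 85.6 nRPKM at T0, 165, 146 and 119 at T6, 208 and 254 at T16 and 229, 316 and 259.9 at T32. Relative to T0 it was −0.03 ± 0.17, 0.94 ± 0.17 and 0.95 ± 0.17 in KO (adjusted p = 0.89, 0.00015 and 0.00018) and 0.33 ± 0.17, 1.09 ± 0.18 and 1.33 ± 0.17 in WT (adjusted p = 0.094, 0.00011 and 4.1e-06). The WT value at T6 passed by DESeq2 (0.41, adjusted p = 0.034) and turned to −0.47 on library totals (adjusted p = 0.0059). From T6 to T16 it rose by 0.97 ± 0.17 in KO and 0.76 ± 0.18 in WT (adjusted p = 8e-05 and 0.0024), the only gene of the 10 called higher at this step with TMM scaling. On library totals Clec4a1 (0.64 in KO and 0.61 in WT) and Clec4a2 (0.80 and 0.95) were called higher as well.

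Clec4a2 itself changed little with TMM scaling. KO libraries held 32.5, 38.5 and 38.1 nRPKM at T0, 29.9, 36.3 and 31.2 at T6, 40.7, 41.9 and 39.5 at T16 and 43.0, 51.3 and 44.6 at T32. WT libraries held 49.8, 40.0 and 30.2 nRPKM at T0, 41.2, 58.9 and 26.8 at T6, 50.7 and 72.1 at T16 and 49.6, 76.0 and 56.2 at T32. Of the 6 changes against T0, 1 passed the test, the 0.61 ± 0.22 (SE; adjusted p = 0.032) of WT at T32. It was lost without WT T0 replicate 2 or 3 or WT T32 replicate 2 (0.41 to 0.61, adjusted p = 0.071 to 0.17). On library totals Clec4a2 was called lower at T6 against T0 in both genotypes, and not called at T16 or T32.

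Clec12a encodes MICL, an inhibitory receptor that binds uric acid crystals of dead cells, and it had the smallest range of the 10 genes (2.19-fold over all libraries). KO libraries held 274, 324 and 313 nRPKM at T0, 335, 381 and 355 at T6, 248, 249 and 263 at T16 and 239.5, 263 and 283 at T32. WT libraries held 198, 174 and 174 nRPKM at T0, 316, 378 and 273 at T6, 186 and 275 at T16 and 182, 203 and 177 at T32. In KO the log2 fold changes at T6, T16 and T32 were 0.12 ± 0.14, −0.28 ± 0.14 and −0.22 ± 0.14 (adjusted p = 0.48, 0.12 and 0.24). In WT it rose at T6 by 0.74 ± 0.14 (SE; adjusted p = 0.00018), which turned to −0.064 on library totals, and was 0.32 ± 0.16 (SE; adjusted p = 0.12) and 0.05 ± 0.14 (SE; adjusted p = 0.81) at T16 and T32. On totals the 3 KO values were called lower (−0.74 to −0.57).

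Clec10a fell furthest. In KO libraries it was at 6.01, 10.5 and 6.58 nRPKM at T0, 1.64, 3.10 and 1.29 at T6, 0.401, 0.400 and 0.470 at T16 and 0.762, 1.07 and 1.36 at T32. In WT libraries it was at 19.8, 23.6 and 10.9 nRPKM at T0, 3.59, 5.17 and 2.05 at T6, 0.473 and 0.584 at T16 and 1.71, 2.30 and 1.60 at T32. The groups did not overlap T0 at any LPS time in either genotype. The log2 fold changes were −2.06 ± 0.36, −4.19 ± 0.40 and −2.84 ± 0.36 in KO (adjusted p = 4.9e-05, 7.7e-08 and 4.7e-06) and −2.42 ± 0.35, −5.11 ± 0.49 and −3.26 ± 0.36 in WT (adjusted p = 6.2e-06, 1e-07 and 7.1e-07). At T16 this is 18.2-fold below T0 in KO and 34.6-fold below it in WT, with 32 counts in the lowest library. From T16 to T32 the level rose again in WT by 1.85 ± 0.44 (SE; adjusted p = 0.024), a call lost without either WT T16 library or WT T32 replicate 1 or 2 (1.68 to 1.99, adjusted p = 0.051 to 0.21). In KO this change was 1.35 ± 0.39 (SE; adjusted p = 0.076).

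**Figure D2:**
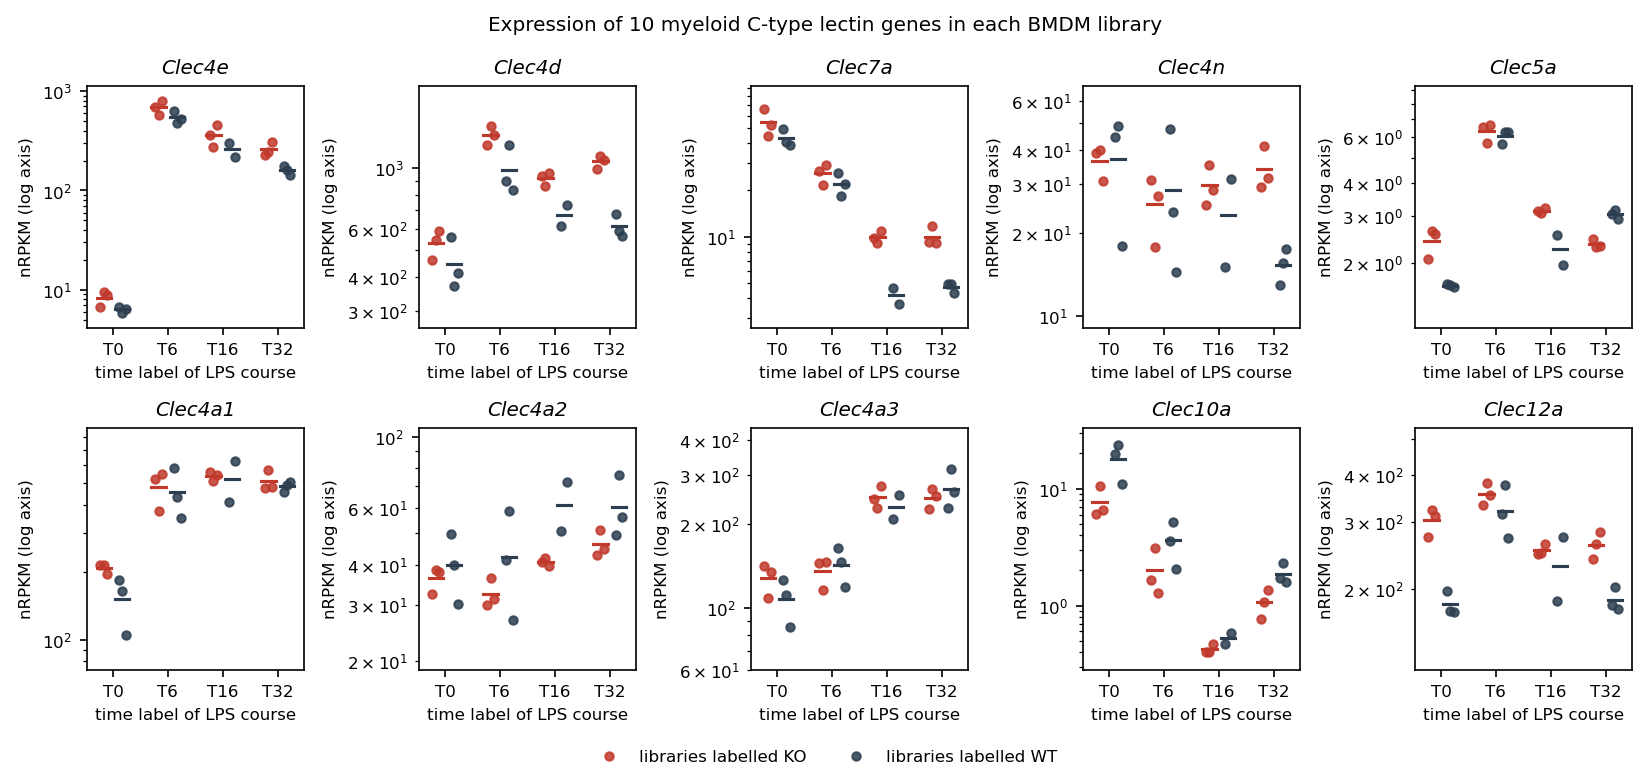
Deposited nRPKM (log axis, scaled for each gene) of the 10 genes in each of the 23 libraries by time label, with KO in red to the left and WT in dark blue to the right; short bars are group means. Clec4e spans 5.89 to 804 nRPKM and Clec10a 0.400 to 23.6 nRPKM, whereas Clec12a stays within 174 to 381 nRPKM.

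Counted over the 10 genes, some receptors rose with LPS and others fell. The LPS comparisons of a genotype share its T0 libraries. At T6, 4 rose in KO (26.2% of all 15782 genes tested rose) and 2 fell (32.4% fell), and in WT 5 rose (27.3%) and 2 fell (31.9%). At T16, 5 rose and 2 fell in KO (20.4% and 23.3% of all genes), and 5 rose and 2 fell in WT (18.8% and 17.2%). At T32, 4 rose and 2 fell in KO (18.2% and 20.0%), and 6 rose and 3 fell in WT (24.5% and 21.9%). Clec4e, Clec4d and Clec4a1 rose, and Clec7a and Clec10a fell, at all 3 times in both genotypes with TMM scaling, but on library totals the Clec4d rise passed only in KO at T32 and the Clec4a1 rise did not pass in KO at T6. Many of the 10 neutrophil and granulocyte precursor markers fell alongside: 4 in KO and 6 in WT at T6 (32.4% and 31.9% of all genes fell), 9 and 8 at T16 (23.3% and 17.2%) and 9 and 8 at T32 (20.0% and 21.9%), with median log2 changes of −1.59 in KO and −1.39 in WT at T16 and −2.66 and −2.88 at T32. Mmp8 went the other way in KO, called higher at T16 (1.08 ± 0.28, SE, edgeR adjusted p = 0.0042) and T32 (1.67 ± 0.28, adjusted p = 0.00011). In WT Mmp8 was −0.18 at T16 and 0.03 at T32 and did not pass. The part of these markers in the falls of Clec7a and Clec10a was not tested. With so many genes changing, the share called among the 10 is set beside these backgrounds and nothing particular to them is read from it. The median log2 change of the 10 genes at T6 was 0.05 in KO and 0.54 in WT, where that of all genes was −0.17 and −0.14. Between T6 and T16, 1 rose and 6 fell in KO (24.2% and 21.8% of all genes) and likewise in WT (22.7% and 19.5%). Those that fell were Clec4e, Clec4d, Clec5a, Clec7a, Clec10a and Clec12a in both, with the calls of Clec4d and Clec12a lost without single libraries (5 and 3 of 23 in KO, 9 and 10 of 23 in WT; log2 fold changes −0.58 to −0.17, adjusted p = 0.05 to 0.48) and without the pair of T6 replicate 2 libraries (−0.38 to −0.31, adjusted p = 0.055 to 0.17). Between T16 and T32, 0 were called in KO (2.55% of all genes; 3 at an unadjusted p under 0.05, 2 by DESeq2) and 1 rose in WT, Clec10a (1.35%).

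Scaling is a limit of these comparisons. With libraries scaled by their totals instead of TMM, the median log2 change over all genes against T0 was −1.0 in KO and −0.94 in WT at T6, −0.50 and −0.45 at T16, and −0.37 and −0.31 at T32. Log2 changes above are on the TMM scale unless library totals or DESeq2 is named. On totals the tally at T6 was 2 higher and 6 lower in KO and 3 and 5 in WT, at T16 it was 3 and 3 in KO and 3 and 3 in WT, and at T32 4 and 4 in KO and 4 and 3 in WT. Between T6 and T16 it was 3 higher and 3 lower in KO and 3 and 4 in WT. Of all 15782 genes, 11499 in KO and 11452 in WT were called on totals at T6, in either direction. At T16 these numbered 8737 in KO and 7232 in WT, and at T32 7254 and 7840. Between T6 and T16 they numbered 7889 in KO and 7340 in WT. Nothing particular to the lectins is read from the tally on totals. Clec12a at T6 came to −0.72 in KO and −0.064 in WT, Clec4a3 in WT at T6 to −0.47 and Clec5a in KO at T16 to −0.10, each with its sign reversed, whereas the rises of Clec4e and Clec4a1 and the falls of Clec7a and Clec10a kept their signs (Clec4a1 in KO at T6 at 0.25, adjusted p = 0.19). In bulk RNA a lower level cannot be told apart from fewer cells of a type.

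**Figure D3:**
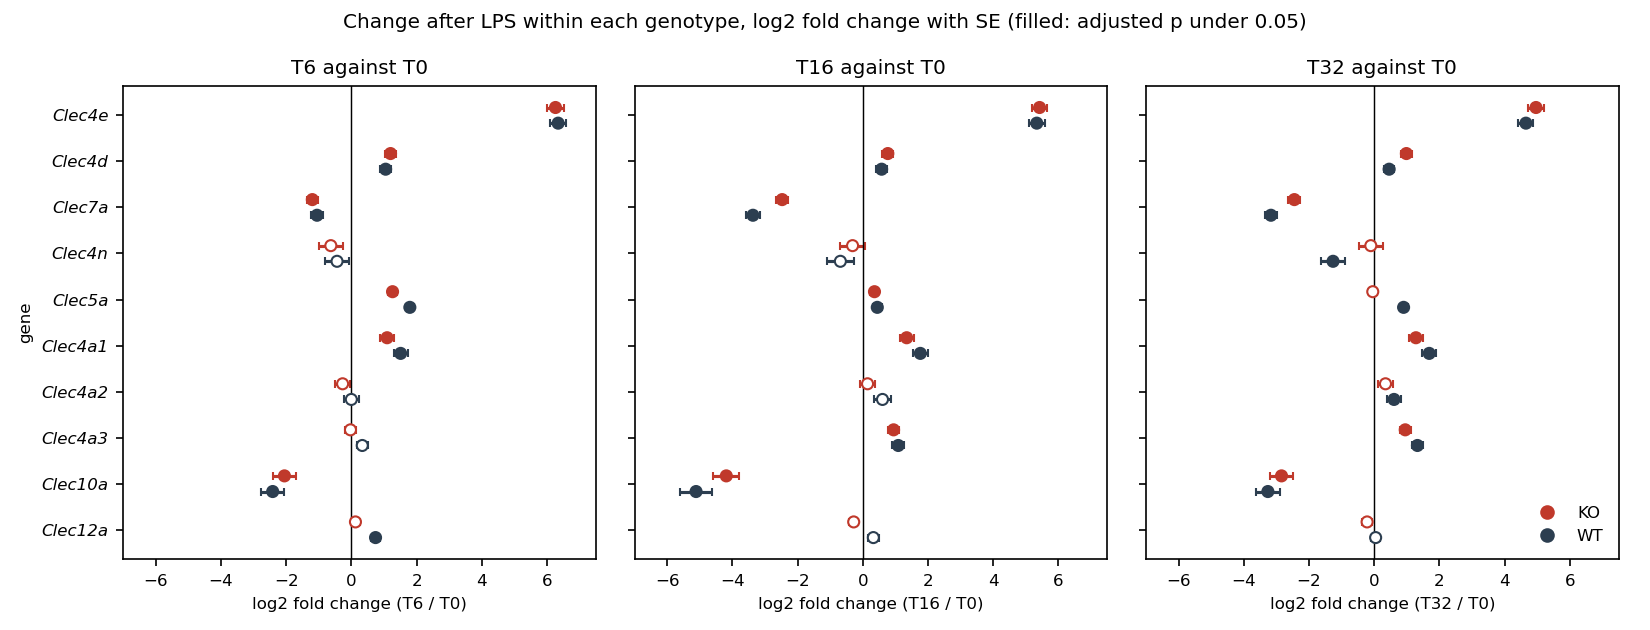
Fitted log2 fold changes at T6, T16 and T32 against T0 (x axis) for each gene, KO in red above WT in dark blue, with bars of 1 SE and filled points for an edgeR adjusted p under 0.05. Clec4e lies at 4.66 to 6.34 and Clec10a at −5.11 to −2.06; Clec5a at T32 lies at −0.04 in KO and 0.90 in WT.

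Libraries labelled KO were then compared with WT at each time. Groups of 2 or 3 libraries can separate without a difference, so non-overlap of the genotypes is given below as a description only. The share of all genes without overlap is not given here, and nothing is read from non-overlap where the test did not pass. Averaged over the 4 times, Clec7a, Clec4d, Clec4e and Clec12a were higher and Clec10a and Clec4a2 lower in KO. The higher 4 compare with 12.1% of all genes tested and the lower 2 with 10.3%. The log2 differences were 0.70 ± 0.09 (SE; adjusted p = 2.4e-05) for Clec7a, 0.46 ± 0.08 (SE; adjusted p = 0.00061) for Clec4d, 0.46 ± 0.10 (SE; adjusted p = 0.0028) for Clec4e and 0.36 ± 0.07 (SE; adjusted p = 0.0018) for Clec12a. They were −0.82 ± 0.19 (SE; adjusted p = 0.004) for Clec10a and −0.39 ± 0.11 (SE; adjusted p = 0.018) for Clec4a2, and the Clec4a2 call was lost without WT T16 replicate 2 (−0.33, adjusted p = 0.069), with the presence of Y-linked transcripts as a covariate (−0.38, adjusted p = 0.062) and without the 4 WT libraries that hold them (−0.34, adjusted p = 0.12). The other 4 genes did not pass the test: Clec4n 0.31 ± 0.19 (SE; adjusted p = 0.25), which came to 0.68 with the covariate and 0.70 without the Y-linked libraries (adjusted p = 0.011 and 0.015), Clec5a 0.16 ± 0.06 (SE; adjusted p = 0.072), Clec4a1 0.15 ± 0.11 (SE; adjusted p = 0.32) and Clec4a3 0.03 ± 0.09 (SE; adjusted p = 0.84). The Y-linked libraries held the highest Clec4n of their WT groups, so leaving them out widens that difference by construction. The median over the 10 genes was 0.24, and that of all genes −0.01. On library totals the median of all genes was −0.19, and the 6 calls kept their direction. Of all 15782 genes, 5596 were called on totals in either direction.

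Clec4e, Clec4d, Clec7a, Clec5a and Clec12a are also expressed by neutrophils and their precursors, and some markers of these cells differed between the genotypes. The 10 listed markers summed to 381 to 459.8 CPM in KO and 195 to 349 in WT at T0, 311 to 465 and 180.3 to 282 at T6, 217 to 289 and 84.6 to 150.4 at T16, and 141 to 219 and 45.7 to 54.2 at T32, so that every KO library lay above every WT library at each time. These sums weigh the abundant markers most. In the average, 5 of 10 were higher in KO (12.1% of all genes were higher), Mmp8 (1.64), Retnlg (1.55), Ly6g (1.20), Ltf (0.88) and Ngp (0.75), and 0 were lower (10.3%) by edgeR. Of the 10, 5 passed an unadjusted p under 0.05, and 5 were called by DESeq2. Camp, Cebpe, Prtn3, Elane and Mpo did not pass, at −0.02 to 0.30 (edgeR adjusted p = 0.31 to 0.99). At T32, 2 of 10 were higher (3.05% of all genes were higher), Mmp8 (42.0 ± 12.0 nRPKM in KO and 6.74 ± 0.976 in WT) and Ltf (6.73 ± 1.95 and 3.35 ± 0.590; SD, n = 3 each). At T0, 1 of 10 was higher (1.83% of all genes were higher), Ly6g (1.24 ± 0.939 nRPKM in KO and 0.333 ± 0.113 in WT). Its log2 difference was 1.88 ± 0.47 (SE, edgeR adjusted p = 0.041). At T16, 1 was higher (4.16%), Mmp8, by 2.25 ± 0.34 (SE, edgeR adjusted p = 0.0012). At T6, 0 were called by edgeR (0.298% of all genes) and 2 by DESeq2, which called 276 genes in all. None of the 10 was at 0 in any group. Ly6g, the defining surface marker, averaged 0.209 nRPKM in KO and 0.157 in WT at T32. The part of these markers in the lectin differences was not tested.  Among the other lists, 3 of 8 macrophage markers, 3 of 4 tested T, B and NK cell markers and the 1 tested mast cell marker were higher in KO in the average, where 12.1% of all genes were higher. None of these markers was called lower, where 10.3% of all genes were. Of the 7 tested dendritic cell markers, 0 differed by edgeR (5 at an unadjusted p under 0.05, 2 by DESeq2).

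At T0, Clec12a and Clec5a were higher in KO (2 of 10; 1.83% of all genes were higher) and 0 were lower (0.114%; edgeR, 4 of 10 at an unadjusted p under 0.05 in either direction and 3 by DESeq2). Clec12a was at 304 ± 26.5 nRPKM in KO and 182 ± 13.7 in WT (SD, n = 3 each), a log2 difference of 0.73 ± 0.14 (SE; adjusted p = 0.0066), and Clec5a was at 2.43 ± 0.313 and 1.64 ± 0.021, a difference of 0.55 ± 0.12 (SE; adjusted p = 0.02). The genotypes did not overlap for either gene. On library totals 1 was higher, Clec12a, and 1 lower, Clec10a, where 227 of all 15782 genes were called in either direction. Both calls of the TMM scale were lost when only T0 libraries were fitted (adjusted p = 0.062 for Clec12a and 0.24 for Clec5a). That of Clec5a was also lost without KO T0 replicate 2 or 3 or any WT T0 library (0.49 to 0.57, adjusted p = 0.063 to 0.09), on library totals (0.41, adjusted p = 0.33) and without a low-count filter (adjusted p = 0.18). Clec10a was at 7.69 ± 2.44 nRPKM in KO and 18.1 ± 6.51 in WT, also without overlap, but the difference of −1.24 ± 0.33 (SE; adjusted p = 0.065) did not pass. It passed with the replicate number as a block and by DESeq2 (adjusted p = 0.013 and 0.02). Clec4a1 had no overlap either, at 0.46 ± 0.21 (SE; adjusted p = 0.45).

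At T6, where Clec4e, Clec4d and Clec5a had their highest group means, 0 of 10 were called (0.298% of all genes were called; 2 of the 10 at an unadjusted p under 0.05, 0 by DESeq2). The differences ran from −0.88 ± 0.35 for Clec10a to 0.40 ± 0.16 for Clec4d, with adjusted p = 0.39 or more, and the groups overlapped for all 10. At this time the deviations of same-numbered KO and WT libraries from their group means correlated at 0.329, 0.593 and 0.357. In a fit to the 6 T6 libraries with the number as a block, added after this was seen, Clec10a was lower in KO (−0.89 ± 0.15, SE; adjusted p = 0.0057) and Clec4d higher (0.41 ± 0.11, SE; adjusted p = 0.05, just under the threshold), where 985 of 13061 genes were called. Clec10a was lower and Clec4d higher in KO in each of the 3 pairs. Clec4e was also higher in each pair (0.30 ± 0.12, SE; adjusted p = 0.15), which did not pass. Without both T6 replicate 2 libraries, in the fit to all groups, 0 of 10 were called. For Clec4e the difference was 0.30 ± 0.20 (SE; adjusted p = 0.71) and for Clec7a 0.19 ± 0.17 (SE; adjusted p = 0.85).

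At T16, Clec7a and Clec5a were higher in KO (2 of 10; 4.16% of all genes were higher) and 0 were lower (3.48%; edgeR, 5 of 10 at an unadjusted p under 0.05 in either direction and 2 by DESeq2). Clec7a averaged 9.95 ± 0.953 nRPKM in KO (SD, n = 3) and 4.19 ± 0.721 in WT (n = 2), a log2 difference of 1.23 ± 0.20 (SE; adjusted p = 0.0023). Clec5a averaged 3.15 ± 0.072 in KO and 2.25 ± 0.415 in WT, a difference of 0.47 ± 0.14 (SE; adjusted p = 0.045). The groups of both genes did not overlap. Without WT T16 replicate 2, the library that stood apart, Clec7a was 1.05 higher (adjusted p = 0.061), and in a fit to the T16 libraries alone 1.21 (adjusted p = 0.075). Without all 4 Y-linked WT libraries it was again 1.05 (adjusted p = 0.068). The Clec5a call was lost in 16 of 23 single omissions (0.28 to 0.48, adjusted p = 0.051 to 0.45): each KO T16, KO T32, WT T0 and WT T32 library, KO T0 replicate 3, WT T6 replicates 1 and 3 and WT T16 replicate 2. With a block for the replicate number its adjusted p was 0.061, and it did not pass on library totals, without a low-count filter, in the T16 libraries alone or with the Y-linked libraries modelled or left out (adjusted p = 0.087 to 0.53). Clec4d, Clec4a2 and Clec10a also had no overlap between the genotypes, at 0.44 ± 0.18 (SE; adjusted p = 0.14), −0.60 ± 0.25 (SE; adjusted p = 0.13) and −0.32 ± 0.45 (SE; adjusted p = 0.69).

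At T32, 3 of 10 were higher in KO, Clec7a, Clec4d and Clec4e (3.05% of all genes were higher) and 0 lower (3.34%; edgeR, 7 of 10 at an unadjusted p under 0.05 in either direction and 6 by DESeq2). Clec7a averaged 10.01 ± 1.54 nRPKM in KO and 4.77 ± 0.380 in WT (SD, n = 3 each), 2.07-fold or 1.05 ± 0.18 (SE; adjusted p = 0.0011). Clec4d averaged 1060.0 ± 59.0 in KO and 612 ± 62.1 in WT, 1.71-fold or 0.78 ± 0.16 (SE; adjusted p = 0.0069). No single omission or alternative setting ended these 2 calls. Clec4e averaged 261 ± 41.2 in KO and 159 ± 17.4 in WT, 1.62-fold or 0.69 ± 0.20 (SE; adjusted p = 0.039), and this call was lost without any single T32 library or KO T16 replicate 1 (0.55 to 0.78, adjusted p = 0.05 to 0.19), on library totals (0.50, adjusted p = 0.14) and when the Y-linked WT libraries were modelled (0.66, adjusted p = 0.054) or left out (0.61, adjusted p = 0.12). On totals 2 were higher, Clec7a and Clec4d, and 1 lower, Clec5a, where 1504 of all 15782 genes were called in either direction. Clec12a, Clec4n, Clec5a and Clec10a also had no overlap between the genotypes, at 0.47 ± 0.14 (SE; adjusted p = 0.058), 1.14 ± 0.38 (SE; adjusted p = 0.079), −0.39 ± 0.12 (SE; adjusted p = 0.062) and −0.82 ± 0.35 (SE; adjusted p = 0.19). Clec12a, Clec4n and Clec5a passed by DESeq2 (adjusted p = 0.011, 0.033 and 0.018), and Clec12a with the replicate block (adjusted p = 0.043). All 4 passed in an edgeR fit to the T32 libraries alone (adjusted p = 0.016, 0.0021, 0.026 and 0.033). That fit called 2688 of 14249 genes, where the fit to all groups called 1009 of 15782, so a pass in it is less particular.

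**Figure D4:**
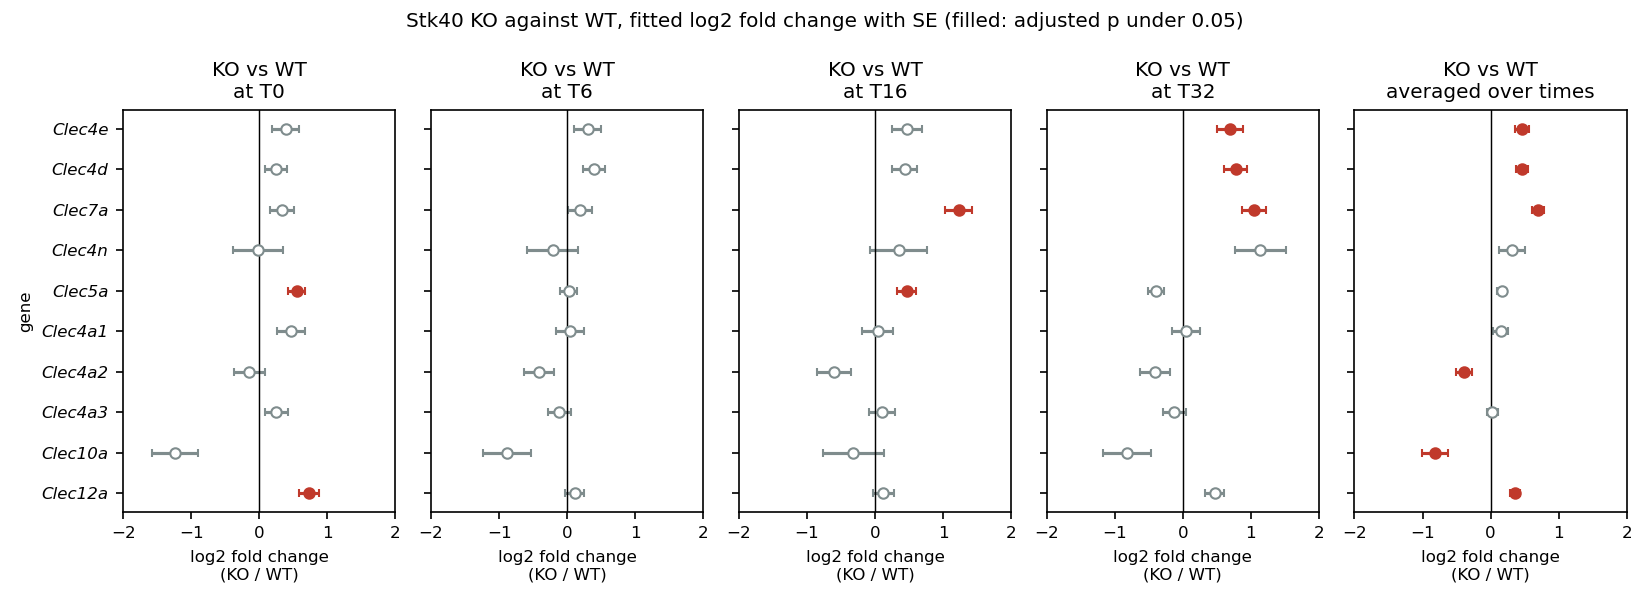
Fitted log2 differences between libraries labelled KO and WT (x axis, KO over WT) for each gene at T0, T6, T16, T32 and averaged over the times, with bars of 1 SE and filled red points for an edgeR adjusted p under 0.05. Clec7a lies at 1.23 at T16 and 1.05 at T32, Clec10a at −1.24 at T0 and −0.82 in the average, and no point is filled at T6.

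Whether the LPS response itself differed was asked through the interaction, the change against T0 in KO minus that in WT. Clec5a was called at T32, at −0.95 ± 0.17 (SE; adjusted p = 0.014), 1 of 10 genes and lower (0.298% of all genes were lower). Its 3 KO libraries at T32 lay below the 3 WT libraries, whereas those at T0 lay above. Over the 3 times jointly it was again the 1 gene called (adjusted p = 0.034; 0.456% of all genes). The T32 call was lost without KO T32 replicate 2 (−0.92, adjusted p = 0.057) or WT T0 replicate 3 (−0.95, adjusted p = 0.051), on library totals (−0.99, adjusted p = 0.052) and without a low-count filter (−0.94, adjusted p = 0.12). At T6 and T16, 0 of 10 were called (0.101% and 0.0697% of all genes; 2 at an unadjusted p under 0.05 at each; 0 and 1 by DESeq2). For Clec7a the interaction was 0.90 ± 0.26 (SE; adjusted p = 0.22) at T16 and 0.72 ± 0.24 (SE; adjusted p = 0.26) at T32, so a different LPS response of Clec7a was not shown, although DESeq2 called it at T16 (adjusted p = 0.046) and edgeR did without WT T16 replicate 1 (1.10, adjusted p = 0.039). For Clec4e it was 0.31 ± 0.28 (SE; adjusted p = 0.88) at T32.

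Other C-type lectin genes were followed for comparison. Of 34 listed, 21 were tested. In the average, 5 were higher in KO (12.1% of all genes were higher), the phospholipase A2 receptor gene Pla2r1 (0.88 ± 0.14), the endocytic receptor gene Ly75 (0.83 ± 0.19), the oxidized-LDL receptor gene Olr1 (0.77 ± 0.22), the activation antigen gene Cd69 (0.76 ± 0.16) and Clec9a (0.55 ± 0.17). Pla2r1, Ly75 and Clec9a were low in every group, with means of at most 1.81, 1.12 and 0.549 nRPKM. The 2 lower ones (10.3% of all genes were lower) were Clec4b1 (−0.88 ± 0.16), a neighbour of the Clec4 group, and Cd209f. At T32 these 2 were lower (3.34% of all genes) and Ly75 was higher (3.05%), at 1.28 ± 0.36 (adjusted p = 0.041). Cd209f had 0, 0 and 0 counts in the KO libraries at T32 and 12, 40 and 14 in WT, so no fold is given. At T0 Pla2r1 was the 1 called, higher in KO at 1.28 ± 0.28 (adjusted p = 0.017), where 1.83% of all genes were higher. At T16 Pla2r1 was higher at 1.15 ± 0.30 (4.16% of all genes were higher). Cd209f was lower at T16 (3.48%), with 0 counts in every KO library and 6 and 19 in WT. At T6, 0 of 21 were called by edgeR, against 0.298% of all genes (1 at an unadjusted p under 0.05, 0 by DESeq2). With LPS at T6, 7 of the 21 rose and 5 fell in KO (26.2% and 32.4% of all genes). In WT (27.3% and 31.9%) 8 rose, among them Cd69 (6.74 ± 0.40), Olr1 (5.83 ± 0.43) and the NKG2D gene Klrk1 (4.33 ± 0.41), and 5 fell, among them Mgl2 (−2.02 ± 0.76), which encodes the close relative of MGL1, and Clec4b1 (−1.62 ± 0.29). Some of these folds rest on very low levels. In WT, Olr1 averaged 0.0373 nRPKM at T0 and 2.39 at T6, Klrk1 0.266 and 5.51, and Mgl2 0.221 and 0.0496.

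Among 23 genes of the receptors' signalling route, 13 rose and 7 fell with LPS at T6 in KO (26.2% and 32.4% of all genes), and 14 rose and 6 fell in WT (27.3% and 31.9%). In WT these included Malt1 (4.92 ± 0.26), the kinase genes Src (4.21 ± 0.15) and Lyn (2.54 ± 0.18) and the adaptor gene Fcer1g (1.56 ± 0.22), which rose, and Card9 (−1.41 ± 0.22) and the transcription factor gene Nfatc2 (−3.57 ± 0.18), which fell. Syk rose by 1.01 ± 0.13. Between genotypes, 4 of the 23 were higher in KO in the average (12.1% of all genes were higher), among them Vav3 (0.62 ± 0.14), Malt1 (0.56 ± 0.12) and Src (0.55 ± 0.07). Lower in the average was 1 (10.3% of all genes), Nfatc2 (−0.54 ± 0.08). At T6 Nfatc2 was the 1 called, at −1.34 ± 0.19 (adjusted p = 0.0019), where 0.298% of all genes were called. Src and Malt1 were higher at T16 (0.58 ± 0.15 and 0.86 ± 0.26) and T32 (0.61 ± 0.14 and 0.98 ± 0.23), and Vav3 at T16 (1.06 ± 0.32). Of all genes, 4.16% were higher at T16 and 3.05% at T32. At T32 Nfatc2 was lower (−0.54 ± 0.16), as were 3.34% of all genes. At T0, 0 of 23 were called by edgeR (2 at an unadjusted p under 0.05, 0 by DESeq2), where 1.83% of all genes were higher and 0.114% lower.

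The genes whose profile was most like that of a lectin were sought over the 23 libraries by Pearson's r of log2 CPM among 9284 genes with a mean of at least 5 CPM. The libraries share the LPS steps and the 8 group means, so the coefficients are descriptive. For Clec4e they were Msr1, the class A scavenger receptor gene (0.993), Sod2, the mitochondrial superoxide dismutase gene (0.991), and Rasgrp1 (0.988). For Clec7a they were Entpd1, which encodes the ectonucleotidase CD39 (0.964), the proton pump subunit gene Atp6v0d2 (0.944) and the glycogenin gene Gyg (0.942). For Clec10a they were the ketohexokinase gene Khk (0.968), Pink1 (0.965) and Gas6, a ligand of the TAM receptors (0.964). Among the lectins themselves, Clec4e was closest to Clec4a1 (0.878) and Clec4d (0.839), Clec7a to Clec10a (0.751), and the most opposed pair was Clec4a1 and Clec10a (−0.833).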

How the data were processed

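Per the labels' protocols, polyadenylated RNA was made into libraries with a TruSeq kit that does not mark strand and read as single 50-base reads. The aligner was GSNAP and the build GRCm38, per the submitters' processing notes, and the sources used here give no versions, annotation or counting tool. Raw counts of uniquely aligned reads per gene and size-factor-adjusted RPKM values (nRPKM) were deposited by the authors, per the file headers. Both kinds of value were identical in the per-sample and whole-series tables for 23 of 23 libraries. Levels are the deposited nRPKM values, which compare between genes per length.

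Counts were tested with edgeR 4.0.16 in R 4.3.3: TMM scaling, the filterByExpr filter by group (15782 genes), 1 mean per group over all 23 libraries, and robust quasi-likelihood F tests with Benjamini-Hochberg adjustment over all genes tested at a threshold of 0.05. The SE of a log2 fold change is its size divided by the square root of F. The procedure was tested on simulated data. Alternatives were DESeq2 1.42.0, other scalings, no filter, the compared groups alone, a covariate for Y-linked transcripts (at least 100 counts), omission of those libraries or of each library, and, added after the sample sheet was seen, the replicate number as a block, also in the T6 libraries alone, and omission of both T6 replicate 2 libraries. The members and lists were chosen with earlier results of these data known. All 10 genes passed the filter. Other genes are named from fixed lists where they were called (1 signalling gene is not reported here), and for likeness as the 3 highest correlations (prior count 1).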

Additional observations from a re-analysis of the deposited data

Results flagged for a closer look

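The change of Clec5a from T0 to T32 differed between the genotypes by −0.95 ± 0.17 on the log2 scale (KO response minus WT response, SE; edgeR adjusted p = 0.014). By edgeR with TMM scaling it was the 1 gene of the 10 whose difference in LPS response was called, in the test of that difference. DESeq2 also called that of Clec7a at T16. Clec5a averaged 2.36 nRPKM at T32 and 2.43 at T0 in KO, and 3.06 at T32 and 1.64 at T0 in WT. The Clec5a call was lost without KO T32 replicate 2 or WT T0 replicate 3, at edgeR adjusted p = 0.057 and 0.051. It was also lost on library totals and without a low-count filter.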

How the results depend on the processing

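Of 1500 single-gene results of the 10 lectins under other settings, 1341 kept their direction and side of the threshold, 59 lost a call, 48 gained one, 48 changed the sign of a difference that was not called, and 4 reversed. All 4 reversals came with library totals as the scaling: Clec12a at T6 against T0 was −0.72 in KO and −0.064 in WT, Clec4a3 in WT at T6 was −0.47, and Clec5a in KO at T16 was −0.10. That scaling moves the median of all genes, as given above. Of the 10 genes it called 1 between KO and WT at T16, 0 in the interaction at T32 and 0 jointly (1577, 79 and 79 of all 15782 genes). Without a filter on low counts, 1 was called between KO and WT at T0, 1 at T16, 0 between T32 and T16 in WT, 0 in the interaction at T32 and 0 jointly. Of all 28424 genes then tested, 240, 705, 307, 57 and 64 were called in these comparisons. DESeq2 called 6 at T32, 2 between T32 and T16 in KO, 3 in WT, 1 in the interaction at T16 and 2 jointly. Over all genes it called 1435, 776, 872, 243 and 408 in these comparisons. A fit to the compared groups alone, which has fewer samples, called 0 at T0, 0 at T16, 7 at T32, 2 between T32 and T16 in KO, 0 in WT, and 4 between T16 and T6 in WT. Over all genes such fits called 126, 9, 2688, 2232, 0 and 3324. With the covariate for Y-linked transcripts, 1 was called at T16 (1149 of all genes). Without the WT libraries that hold them, 0 were called at T16, 0 between T32 and T16 in WT and 0 jointly (117, 42 and 22 of all genes). The cause of these changes was not tested. Over all genes the calls between KO and WT at T16 numbered 1206, and 9 in the compared groups alone, 117 without the Y-linked libraries and 2141 by DESeq2. At T32 they numbered 1009, and 2688 in the compared groups alone, and at T6 47, and 276 by DESeq2, 0 in the compared groups alone and 985 in these groups with the block.

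Leaving out each library in turn, 77 of 4140 single-gene results lost a call and 36 gained one. The genes called between KO and WT ran from 1 to 3 at T0, 0 to 0 at T6, 0 to 2 at T16, 2 to 5 at T32 and 5 to 7 in the average. Against T0 in KO they ran from 6 to 6 at T6, 6 to 7 at T16 and 6 to 6 at T32, and in WT from 7 to 8, 6 to 8 and 6 to 9. From T6 to T16 they ran from 5 to 7 in KO and 5 to 7 in WT, and from T16 to T32 from 0 to 1 in KO and 0 to 2 in WT. For the interaction they ran from 0 to 0 at T6, 0 to 2 at T16, 0 to 1 at T32 and 0 to 2 jointly.

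The deposited sheet numbers the replicates, without saying that a number marks a shared mouse or day. Deviations of same-numbered KO and WT libraries from their group means correlated at −0.317 to 0.593 over 11 pairs, and 9 of 11 KO libraries correlated best with their own number. At T6 all 3 pairs were over 0.1, and the block fitted to the T6 libraries called 2 genes between KO and WT. With the replicate block, added after the sheet was seen, 1 gene was called between KO and WT at T16 and 1 between T32 and T16 in KO (1250 and 457 of all genes).

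The smallest counts were those of Clec10a, down to 32 a library, and of Clec5a, down to 202. WT T16 has 2 libraries, of which replicate 2 stood apart, so every comparison that uses this group rests on few samples.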

Other observations

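The 4 WT libraries with Y-linked transcripts had the highest Clec4n of their group: 48.6 nRPKM at T0 (the others 44.3 and 17.9), 47.5 at T6 (23.7 and 14.4), 31.3 at T16 (15.1) and 17.5 at T32 (12.9 and 15.5). This was noticed after the values were seen.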
